A study of Mus musculus with 12 samples.

Results

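A set of 10 genes of the chemokine system that draws monocytes into tissue were followed across 12 murine tumours: the CC chemokine genes Ccl2, Ccl7, Ccl8, Ccl12, Ccl3, Ccl4, Ccl6 and Ccl9, and the receptor genes Ccr1 and Ccr2. They were taken by symbol from the expression table and make up 10 of its 24421 gene symbols. The tumours were 425-ICC, a murine intrahepatic cholangiocarcinoma (a malignancy of intrahepatic bile ducts), and total RNA of each was sequenced in bulk from a stranded library. All were taken at 8 days of treatment, with 3 samples in each of 4 groups. Combination tumours received GC together with dual ICB, GC tumours received GC alone, ICB tumours received dual ICB alone, and Control tumours received IgG. GC is an abbreviation that the labels do not spell out, and is the usual one for gemcitabine plus cisplatin. ICB stands for immune checkpoint blockade, and the title of the series refers to blockade of CTLA-4 together with therapy against PD1. Mouse strain, age, sex, doses, schedule and pooling were not given in the sources used here, nor was any link of samples to animals, and p-values therefore reflect only how much these samples vary.

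Chemokines are small secreted proteins that guide leukocytes through G protein-coupled receptors. In mice, CCR2 is the receptor that inflammatory monocytes need to leave the bone marrow and enter tissue, and CCL2, CCL7 and CCL12 act on it. CCR1 is a receptor of monocytes, macrophages and neutrophils that answers to CCL3, CCL6 and CCL9, and monocytes that enter a tumour can become tumour-associated macrophages, which themselves make many of these chemokines.

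The 8 chemokine genes lie in a pair of groups on chromosome 11 (GRCm38, GENCODE M21). The monocyte chemoattractant protein (MCP) genes Ccl2, Ccl7, Ccl12 and Ccl8 lie in this order between 82035571 and 82116799, a span of 81 kb. The macrophage inflammatory protein (MIP) genes Ccl9, Ccl6, Ccl3 and Ccl4 lie between 83572919 and 83664683, a span of 92 kb, and 1456 kb separate the groups. Ccr1 and Ccr2 lie within 151 kb of each other on chromosome 9. No exon of these 10 genes overlaps an exon of another annotated gene.

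Promoters are shown for a neighbouring pair of each group. Ccl6 and Ccl9 are shown because their transcripts varied together between libraries (Pearson r = 0.95), and Ccl8 and Ccl12 (r = 0.83) because they are the MCP genes with a matched promoter. The sequences are those of RefSeq for GRCm38.p6, from 250 bases before to 50 bases after the annotated start, and 7 of the 10 genes were matched (not Ccl2, Ccl7 and Ccl4). Capitals mark runs of at least 8 aligned bases that are identical in both promoters of a pair. Ccl6 is at chr11:83593038-83593337 and Ccl9 at chr11:83578587-83578886, both on the minus strand.
Ccl6: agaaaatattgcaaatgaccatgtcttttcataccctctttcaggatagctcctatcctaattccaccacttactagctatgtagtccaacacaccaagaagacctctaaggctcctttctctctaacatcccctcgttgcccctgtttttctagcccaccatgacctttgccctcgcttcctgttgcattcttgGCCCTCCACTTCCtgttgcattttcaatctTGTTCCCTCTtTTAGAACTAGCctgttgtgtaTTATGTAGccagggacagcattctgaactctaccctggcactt
Ccl9: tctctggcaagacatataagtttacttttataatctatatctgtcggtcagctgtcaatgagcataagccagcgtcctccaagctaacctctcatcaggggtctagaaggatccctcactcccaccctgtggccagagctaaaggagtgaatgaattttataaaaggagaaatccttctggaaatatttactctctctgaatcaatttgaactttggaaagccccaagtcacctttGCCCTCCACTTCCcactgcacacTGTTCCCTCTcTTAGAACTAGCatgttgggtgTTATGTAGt
Of 239 aligned bases of the Ccl6 and Ccl9 promoters 170 were identical (71.1%), the highest share among the 21 pairs of the 7 promoters, whose other pairs lay between 57.0% and 67.2%. They shared 4 such runs, the longest of 13 bases. In Ccl9 all but the longest run lie after the annotated start, whereas in Ccl6 all but the last lie before it. Ccl8 is at chr11:82114935-82115234 and Ccl12 at chr11:82101595-82101894, both on the plus strand.
Ccl8: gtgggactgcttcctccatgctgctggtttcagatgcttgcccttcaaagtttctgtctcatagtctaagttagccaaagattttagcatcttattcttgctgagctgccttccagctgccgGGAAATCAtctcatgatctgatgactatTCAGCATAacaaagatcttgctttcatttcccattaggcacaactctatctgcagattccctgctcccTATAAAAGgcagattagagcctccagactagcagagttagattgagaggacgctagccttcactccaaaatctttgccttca
Ccl12: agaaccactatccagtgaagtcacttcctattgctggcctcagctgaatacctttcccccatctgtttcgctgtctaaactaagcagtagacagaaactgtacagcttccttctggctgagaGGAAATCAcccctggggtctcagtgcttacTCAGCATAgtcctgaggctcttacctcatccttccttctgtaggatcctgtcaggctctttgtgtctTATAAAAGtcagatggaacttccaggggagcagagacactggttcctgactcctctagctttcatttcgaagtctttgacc
The Ccl8 and Ccl12 promoters were identical at 180 of 277 aligned bases (65.0%) and shared 3 runs of 8 bases. One of these runs, TATAAAAG, holds the TATA box letters TATAAA, which start 32 bases before the start of Ccl8 and 31 bases before that of Ccl12. Both strands of the 7 promoters were searched for 5 motifs. TATAAA was found in 3 of them (Ccl12, Ccl8 and Ccl9) and in 13.6% of all 32851 promoters. The AP-1 letters TGANTCA were found in 1 (Ccl9) against 7.81% of all promoters, and the C/EBP letters TTNNGNAA in 4 (Ccr1, Ccr2, Ccl9 and Ccl3) against 40.7%. The NF-kB letters GGGANNTTCC (1.47% of all promoters) and the interferon-stimulated response element letters GAAANNGAAA (3.44%) were in none of the 7 windows.

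The libraries differ in ways that bear on these genes. Sums of FPKM (fragment counts scaled to transcript length and to library size) lay between 547146 and 660067 per library, and depth is unknown. A biliary list of 6 genes was detected in every group (mean log2(FPKM + 1) of 1.13 to 4.94). Hepatocyte genes (15 found) averaged 5.23, 10.93 and 9.65 on that scale in Combination replicates 1, 2 and 3, between 4.66 and 7.57 in GC, between 3.63 and 5.80 in ICB, and between 0.65 and 2.19 in Control. Small intestinal genes averaged 6.25 in Combination replicate 1 and at most 0.90 elsewhere. Skeletal muscle genes averaged 8.07 in GC replicate 2 and 6.52 in Control replicate 2, and at most 0.82 elsewhere. These 3 libraries, and Combination replicate 2 with its hepatocyte transcripts, stand apart, and the results that turn or move most without one of them are given both ways. In bulk tissue, fewer cells of a type and less RNA per cell cannot be told apart.

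All 10 genes were detected in all 12 libraries. By mean FPKM over all libraries, Ccl6 was the most abundant of them, at rank 157 of all symbols, followed by Ccl9 (602), Ccl8 (762), Ccl7 (2182), Ccl2 (2367), Ccl12 (2822), Ccr1 (3362), Ccr2 (5695), Ccl3 (7092) and Ccl4 (8348). Ccl6 was the highest of the 8 chemokine transcripts in every library. It made up 51.3% to 68.3% of their summed FPKM in Combination, 38.5% to 74.0% in GC, 55.6% to 67.6% in ICB and 46.4% to 62.9% in Control. The sum itself lay between 158 and 1263 FPKM in Combination, between 1064 and 2260 in GC, between 638 and 841 in ICB, and between 148 and 654 in Control. Every GC library therefore had a higher sum than every ICB and every Control library. The highest library exceeded the lowest 1672-fold for Ccl8, 237-fold for Ccl12 and 84.8-fold for Ccr2, and between 10.8-fold (Ccl9) and 33.6-fold (Ccl7) for the other 7 genes. Control replicate 1 was the lowest for Ccl8, Ccl12 and Ccr2, at 0.484, 0.370 and 0.316 FPKM, so those folds rest on low values of a single library.

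**Figure D1:**
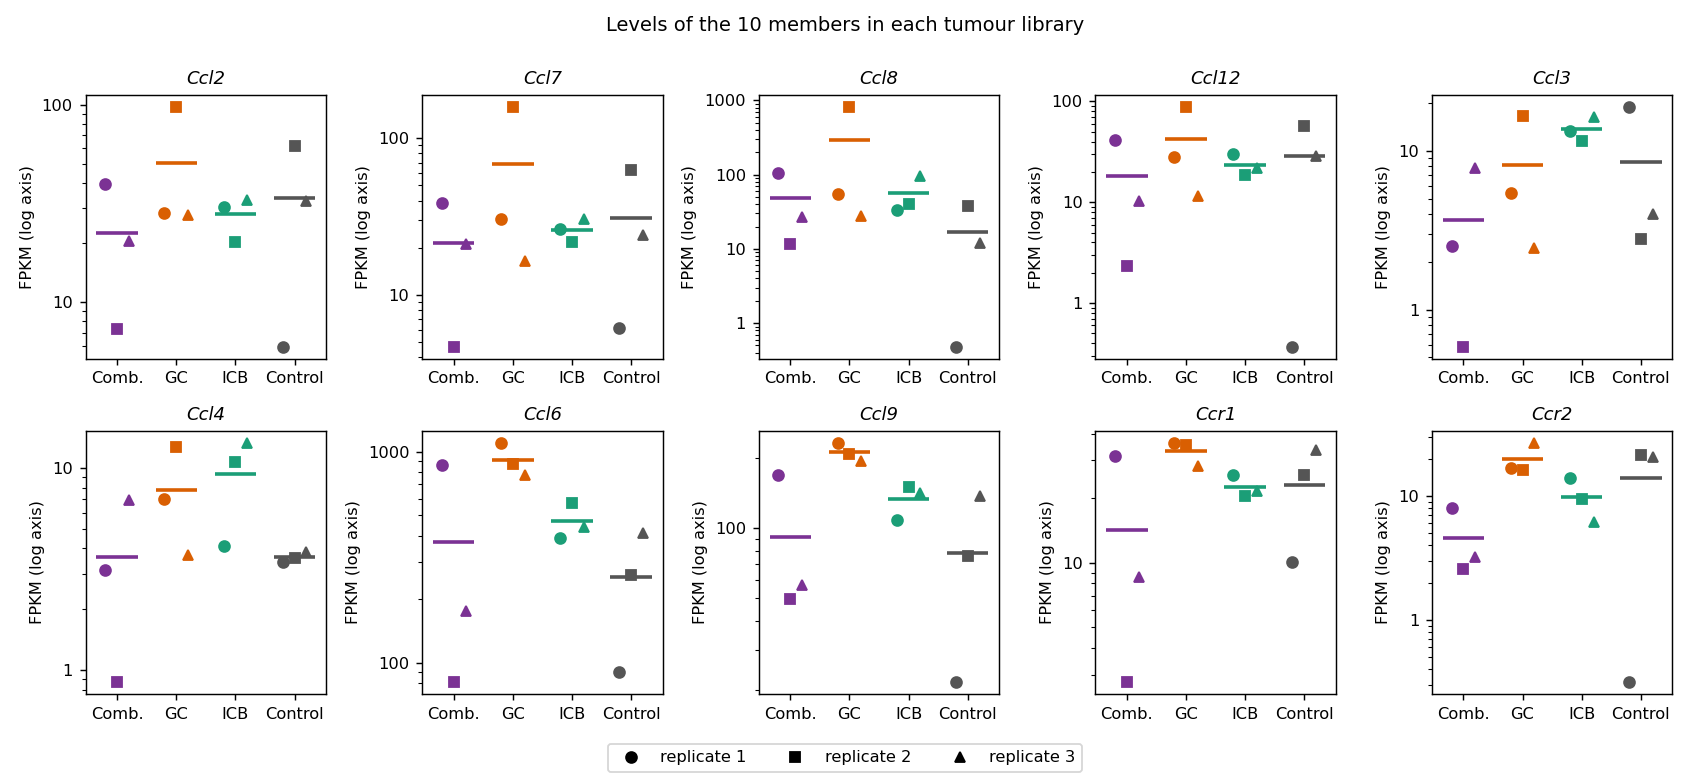
FPKM (log axis) of each gene in each library, by group from Combination to Control. Symbols stand for replicates 1 to 3 and bars for group means. Control replicate 1 and Combination replicate 2 are low for most genes, and GC replicate 2 is high for Ccl2, Ccl7, Ccl8 and Ccl12.

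Among the MCP genes, Ccl2 encodes the main monocyte attractant of the CCR2 axis. It stood at 39.8, 7.35 and 20.5 FPKM in Combination, 28.2, 96.9 and 27.6 FPKM in GC, 30.3, 20.2 and 33.03 FPKM in ICB, and 5.97, 62.0 and 32.7 FPKM in Control (replicates 1, 2 and 3). The highest value was that of GC replicate 2 and the lowest that of Control replicate 1, and all groups overlapped. Ccl7, whose product acts on CCR2 and CCR1, stood at 38.7, 4.69 and 21.1 FPKM in Combination, 30.4, 158 and 16.5 FPKM in GC, 26.2, 21.6 and 30.6 FPKM in ICB, and 6.14, 62.5 and 24.0 FPKM in Control. Its high and low libraries in GC, Combination and Control were those of Ccl2. Group means of Ccl2 were 22.5 ± 16.3 FPKM in Combination, 50.9 ± 39.9 in GC, 27.9 ± 6.75 in ICB and 33.6 ± 28.0 in Control (SD, n = 3 each).

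Ccl12, which encodes a mouse CCR2 agonist, stood at 41.8, 2.36 and 10.3 FPKM in Combination, 28.4, 87.5 and 11.6 FPKM in GC, 30.1, 18.4 and 21.7 FPKM in ICB, and 0.37, 56.9 and 28.8 FPKM in Control. Control thus held both one of the highest values and the lowest. Ccl8 encodes an MCP that in mice is known as an agonist of CCR8. It stood at 106, 11.8 and 26.5 FPKM in Combination, 54.2, 809 and 27.9 FPKM in GC, 33.3, 39.9 and 95.6 FPKM in ICB, and 0.484, 38.1 and 11.98 FPKM in Control. GC replicate 2 stood far above the other libraries, and the Control values overlapped with those of every treated group.

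Among the MIP genes, Ccl6 and Ccl9 encode CCR1 ligands that mouse macrophages and other myeloid cells make abundantly. Ccl6 stood at 862, 81.1 and 175 FPKM in Combination, 1103, 870.5 and 779 FPKM in GC, 392, 569 and 442 FPKM in ICB, and 90.9, 261 and 411 FPKM in Control. Ccl9 stood at 169, 49.4 and 56.9 FPKM in Combination, 234, 209 and 195 FPKM in GC, 109, 150.5 and 142 FPKM in ICB, and 21.7, 76.1 and 138 FPKM in Control. For both genes all 3 GC libraries lay above all ICB and all Control libraries. GC lay wholly above Control for 18.6% of all genes, and the share wholly above ICB was not computed. Combination replicate 1 lay within the GC range for Ccl6, whereas the other two Combination libraries lay below every GC and ICB library for both genes.

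Ccl3 and Ccl4 encode MIP-1 alpha and MIP-1 beta, and CCL3 acts on CCR1. Ccl3 stood at 2.52, 0.586 and 7.81 FPKM in Combination, 5.44, 16.6 and 2.43 FPKM in GC, 13.3, 11.6 and 16.3 FPKM in ICB, and 18.7, 2.76 and 4.02 FPKM in Control. Control replicate 1, the lowest Control library for the other members, was here the highest of all 12. Ccl4 stood at 3.14, 0.875 and 6.93 FPKM in Combination, 7.02, 12.7 and 3.72 FPKM in GC, 4.10, 10.7 and 13.3 FPKM in ICB, and 3.41, 3.58 and 3.85 FPKM in Control. Relative to their mean, its Control values were the most even of any gene and group here, with a mean of 3.61 ± 0.221 FPKM (SD, n = 3).

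Of the receptors, Ccr1 stood at 31.3, 2.78 and 8.61 FPKM in Combination, 36.3, 35.5 and 28.2 FPKM in GC, 25.5, 20.5 and 21.6 FPKM in ICB, and 10.1, 25.5 and 33.6 FPKM in Control. Ccr2 stood at 7.95, 2.58 and 3.24 FPKM in Combination, 16.6, 16.2 and 26.8 FPKM in GC, 13.8, 9.45 and 6.15 FPKM in ICB, and 0.316, 21.2 and 20.7 FPKM in Control. Every Combination library was below every GC library for Ccr2. Group means of Ccr2 were 4.59 ± 2.93 FPKM in Combination, 19.9 ± 6.03 in GC, 9.81 ± 3.85 in ICB and 14.1 ± 11.9 in Control (SD, n = 3 each). With the groups ordered by mean, neighbouring groups overlapped in range for all 10 genes, except that GC lay wholly above ICB for Ccl6 and Ccl9. The share of all genes with GC wholly above ICB was not computed, so this cannot be called particular to these genes.

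GC against Control compares these transcripts between tumours given GC alone and tumours given IgG. All 10 genes had a positive difference, except that Ccl3 (0.02 ± 0.76) turned to -0.083 with TMM scaling and -0.15 with quantile normalization. The median was 1.11 on the log2(FPKM + 1) scale against 0.09 over the 12765 genes tested, and Ccl8, Ccl6 and Ccl9 differed most. Ccl6 averaged 918 ± 167 FPKM in GC and 255 ± 160.4 FPKM in Control, and Ccl9 averaged 213 ± 19.6 FPKM in GC and 78.5 ± 57.9 FPKM in Control (SD, n = 3 each). None of the 10 passed the threshold (limma adjusted p under 0.05), which 0.00783% of all genes tested passed. The log2 differences were 2.08 ± 0.74 (SE) for Ccl6 (limma, unadjusted p = 0.0169, adjusted p = 0.361), 1.77 ± 0.60 for Ccl9 (unadjusted p = 0.0128, adjusted p = 0.331) and 3.58 ± 1.35 for Ccl8 (unadjusted p = 0.0219, adjusted p = 0.402). These 3 of 10 were under an unadjusted p of 0.05, as were 9.86% of all genes. The GC libraries lay wholly above Control for 2 of 10 genes, Ccl6 and Ccl9, against 18.6% of all genes, and lay wholly below it for none, against 9.29%. Differences of the other members lay between 0.02 ± 0.76 (Ccl3) and 1.26 ± 1.28 (Ccl12). Without Control replicate 1, the difference was -0.09 for Ccl2, -0.38 for Ccl12 and -0.11 for Ccr2. Without GC replicate 2 it was 2.14 for Ccl8, 0.06 for Ccl7, 0.23 for Ccl2, 0.53 for Ccl12 and -0.62 for Ccl3, while Ccl6 (2.11) and Ccl9 (1.78) moved little. With the hepatocyte list mean of each library as a covariate, Ccl6 (4.04 ± 0.72, limma adjusted p = 0.0235), Ccl9 (2.98 ± 0.72, adjusted p = 0.0469) and Ccr1 (2.49 ± 0.54, adjusted p = 0.0363) were called, 3 of 10 where 3.502% of all genes were called. With the Combination libraries out of the fit Ccl6 was called (limma adjusted p = 0.0356), 1 of 10 where 3.57% of all genes were. Every GC library exceeded every Control library in that list, so its part and that of the treatment cannot be told apart.

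ICB against Control compares tumours given dual ICB alone with tumours given IgG. The difference was again positive for all 10 genes (median 0.93, against -0.06 over all genes), though both comparisons share the Control libraries. The differences that exceeded 1 were those of Ccl8 (2.50 ± 1.35), Ccl6 (1.11 ± 0.74), Ccl9 (1.10 ± 0.60), Ccl4 (1.04 ± 0.55) and Ccl3 (1.02 ± 0.76), while Ccr1 and Ccr2 differed by 0.11 ± 0.64 and 0.27 ± 0.88. None passed (limma, adjusted p = 1 for each), as no gene did of all those tested (0% called), and none of the 10 was under an unadjusted p of 0.05, against 1.75% of all genes. Ccl4 averaged 9.37 ± 4.75 FPKM in ICB and 3.61 ± 0.221 FPKM in Control (SD, n = 3 each), and was the 1 member whose ICB libraries all exceeded Control, against 4.65% of all genes. None lay wholly below, against 4.67%. Without Control replicate 1, the differences of Ccl2, Ccl7, Ccl12, Ccr1 and Ccr2 were -0.70, -0.57, -0.79, -0.37 and -1.08.

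In Combination against Control the members went both ways. The difference was positive for 3 of 10 (Ccl8 at 1.88 ± 1.35, Ccl9 at 0.34 ± 0.60 and Ccl6 at 0.11 ± 0.74) and negative for 7 (Ccl12, at -0.18 ± 1.28, turned to 0.11 with TMM scaling), the lowest of them being Ccr1 at -1.04 ± 0.64 and Ccl3 at -0.97 ± 0.76. The median was -0.28, close to the -0.29 of all genes tested. None of the 10 passed (limma adjusted p of at least 0.297), against 3.95% of all genes, none was under an unadjusted p of 0.05 (26.3% of all genes), and all overlapped between the groups, while 9.74% of all genes lay wholly higher and 13.2% wholly lower in Combination. Without Combination replicate 1, Ccr1 was called lower (log2 difference -1.85 ± 0.47, limma adjusted p = 0.0183), 1 of 10 where 26.3% of all genes were called. Without Control replicate 1, Ccr2 was called lower (-2.09, limma adjusted p = 0.0410), 1 of 10 where 1.79% of all genes were called. With the hepatocyte covariate 6 of the 7 negative differences turned positive (Ccl12, Ccl7, Ccl2, Ccr1, Ccr2 and Ccl4), to 1.86 ± 0.72 for Ccr1 and 0.99 ± 1.61 for Ccr2, and none passed. The hepatocyte list lay wholly higher in Combination (5.23 to 10.93) than in Control (0.65 to 2.19). Its part and that of the treatment therefore cannot be told apart here. Without Combination replicate 2 the differences of Ccl2, Ccl4, Ccl7 and Ccl12 were positive, at 0.27, 0.31, 0.40 and 0.73.

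Combination is set against GC to ask what blockade adds to chemotherapy. All 10 genes had a negative difference (Ccl12 turned to 0.25 with the hepatocyte covariate), with a median of -1.44 against -0.36 over all genes, and both receptors and the CCR1 ligands Ccl6 and Ccl9 stood lowest relative to their error. Ccr1 averaged 14.2 ± 15.1 FPKM in Combination and 33.3 ± 4.47 FPKM in GC, and Ccl6 averaged 373 ± 427 FPKM in Combination and 918 ± 167 FPKM in GC (SD, n = 3 each). None of the 10 passed, against 0.666% of all genes. The log2 differences were -1.69 ± 0.64 for Ccr1 (limma, unadjusted p = 0.0216, adjusted p = 0.271), -1.97 ± 0.74 for Ccl6 (unadjusted p = 0.0221, adjusted p = 0.273), -1.43 ± 0.60 for Ccl9 (unadjusted p = 0.0358, adjusted p = 0.286) and -1.98 ± 0.88 for Ccr2 (unadjusted p = 0.0453, adjusted p = 0.296). These were 4 of 10 members, against 16.5% of all genes, under an unadjusted p of 0.05. Ccl9 and Ccr2 lay wholly lower in Combination, 2 of 10 against 14.2% of all genes, and none lay wholly higher, against 4.16%. Without Combination replicate 1, the library with intestinal transcripts, 3 genes were called lower. They were Ccl6 (-2.92 ± 0.54, limma adjusted p = 0.00372), Ccr1 (-2.50 ± 0.47, adjusted p = 0.00427) and Ccl9 (-1.98 ± 0.56, adjusted p = 0.0289), 3 of 10 where 24.9% of all genes were called. The remaining Combination libraries are those with the highest hepatocyte list means, 10.93 and 9.65. With that list mean as a covariate over all 12 libraries, the differences were -0.84 ± 0.58 for Ccl6, -0.63 ± 0.44 for Ccr1 and -0.73 ± 0.58 for Ccl9 (limma adjusted p = 1 for each). Without Combination replicate 2 they were -1.22 for Ccl6, -0.95 for Ccr1 and -1.10 for Ccl9. Without GC replicate 2 the difference of Ccl8 was -0.25, that of Ccl7 -0.45 and that of Ccl3 -0.36.

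Combination is set against ICB to ask what chemotherapy adds to blockade. All 10 differences were negative (median -1.003, against -0.21 over all genes), with Ccl3 and Ccl4 lowest relative to their error. Ccl3 averaged 3.64 ± 3.74 FPKM in Combination and 13.7 ± 2.38 FPKM in ICB (SD, n = 3 each), a log2 difference of -1.99 ± 0.76 (limma, unadjusted p = 0.0226, adjusted p = 0.171). Ccl4 differed by -1.26 ± 0.55 (unadjusted p = 0.0404, adjusted p = 0.224). None of the 10 passed, against 2.24% of all genes, and these 2 of 10 were under an unadjusted p of 0.05, against 20.5%. Ccl3 was the 1 member wholly lower in Combination, against 10.1% of all genes, and none was wholly higher, against 9.47%. Without Combination replicate 1, Ccl6 (-1.94 ± 0.54, adjusted p = 0.0315) and Ccr1 (-1.96 ± 0.47, adjusted p = 0.0162) were called lower, 2 of 10 where 17.1% of all genes were called. Without Combination replicate 2 they were -0.25 and -0.41, and Ccl2, Ccl7 and Ccl8 were slightly positive (0.066, 0.14 and 0.079). With the hepatocyte covariate 7 of the 10 differences turned positive, from 0.24 for Ccl9 to 1.57 for Ccl8, and those of Ccl3, Ccl4 and Ccr2 stayed negative.

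**Figure D2:**
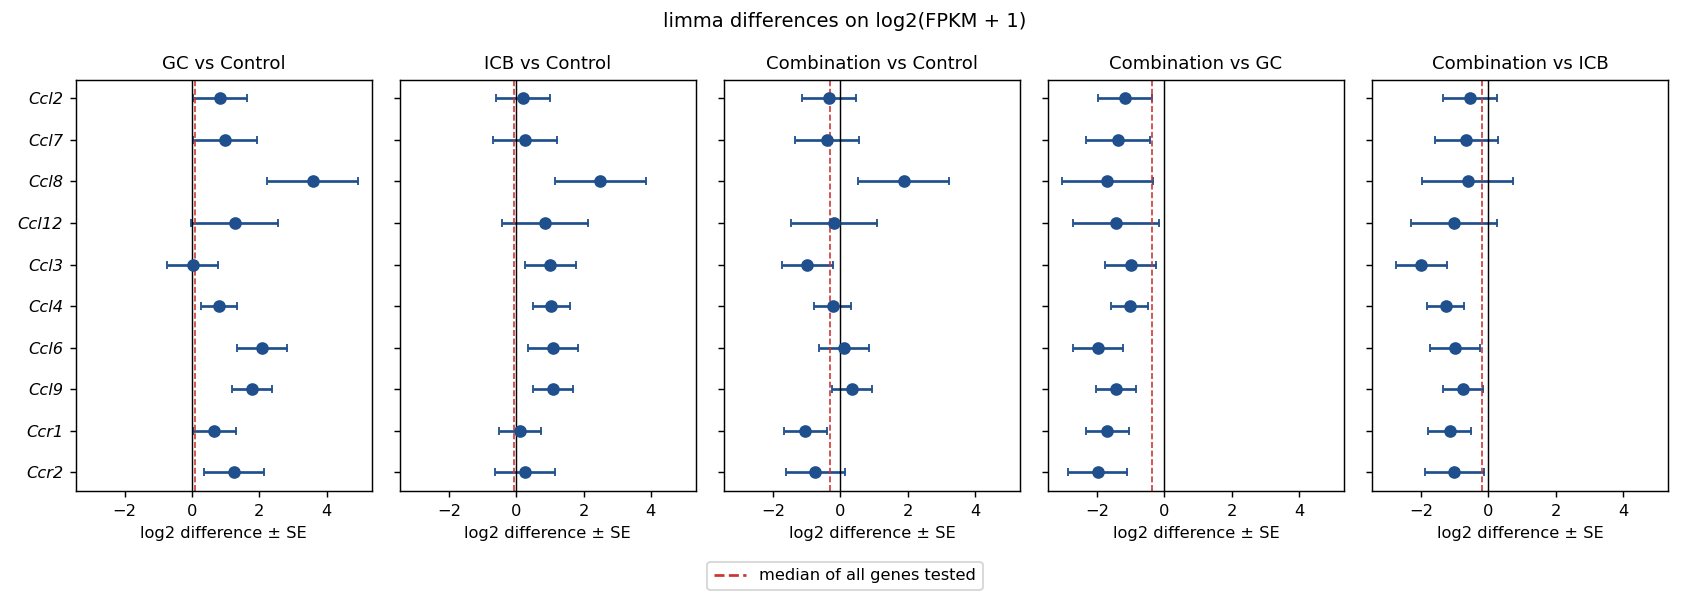
limma differences on the log2(FPKM + 1) scale with their SE, as the first-named group of each panel minus the second. The dashed line is the median of all 12765 genes tested. All 10 points lie right of 0 in GC against Control (where Ccl3, at 0.02, turned negative under TMM or quantile scaling) and in ICB against Control, and left of 0 in Combination against GC and against ICB (where 1 and 7 of them turned positive with the hepatocyte covariate), and none passed the adjusted threshold.

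The factorial terms ask whether the effect of GC differs with and without ICB. All 10 interaction terms were negative, with a median of -2.16 against -0.26 over all genes, so each difference with both treatments was below the sum of the single ones. Those of Ccl6 (-3.08 ± 1.05, limma, unadjusted p = 0.0134, adjusted p = 0.482), Ccl9 (-2.53 ± 0.85, unadjusted p = 0.0122, adjusted p = 0.476), Ccl4 (-2.06 ± 0.77, unadjusted p = 0.0213, adjusted p = 0.549) and Ccl8 (-4.20 ± 1.91, unadjusted p = 0.0495, adjusted p = 0.609) were under an unadjusted p of 0.05. None of the 10 passed, against 0.0157% of all genes, and 8.09% of all genes were under the unadjusted threshold. Without Combination replicate 1, Ccl6 (-4.02, adjusted p = 0.00745), Ccl9 (-3.08, adjusted p = 0.0320) and Ccr1 (-2.61, adjusted p = 0.0315) were called, 3 of 10 where 6.85% of all genes were. Averaged over both levels of the other treatment, the chemotherapy term was positive for 7 of 10 members and the blockade term for 3 of 10, and no member passed either, against 3.36% and 0.204% of all genes. In the blockade term Ccr1 alone of the members was called without Combination replicate 1, where 9.66% of all genes were. In the moderated F over the 4 groups no member passed, against 1.83% of all genes, and Ccl6 and Ccr1 did so without Combination replicate 1, where 15.5% of all genes did. No member was under an unadjusted p of 0.05 in either main effect or in the F, against 22.3%, 6.42% and 17.1% of all genes.

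Levels of 2 members were also set against each other within each library, as the difference of their log2(FPKM + 1) values. Of the 45 pairs, 5 (11.1%) had differences wholly separated between GC and Control, 6 (13.3%) between ICB and Control and 7 (15.6%) between Combination and Control, against 29.8%, 12.6% and 25.2% of pairs of all genes. The share was 2.22% for Combination against GC (17.1% of all pairs) and 4.44% for Combination against ICB (27.5%). The same 5 pairs were higher in all 3 treated groups than in Control (11.1%, against 4.70% of pairs of all genes), namely Ccl8 over Ccl2, Ccl7 and Ccl12, and Ccl6 and Ccl9 over Ccr1. They share genes and the Control libraries, were singled out after their values were seen, and are given without a test. As a plain ratio of FPKM, Ccl8 over Ccl12 overlapped, at 1.11 in ICB replicate 1 against 1.31 in Control replicate 1, and the other 4 pairs stayed separated.

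Ccl8 over Ccl2 was 2.66, 1.60 and 1.29 in Combination, 1.92, 8.34 and 1.01 in GC, 1.10, 1.97 and 2.89 in ICB, and 0.0810, 0.614 and 0.367 in Control, as ratios of FPKM. Ccl6 over Ccr1 was 27.6, 29.2 and 20.3 in Combination, 30.4, 24.5 and 27.6 in GC, 15.3, 27.7 and 20.5 in ICB, and 8.999, 10.2 and 12.3 in Control. Ccl8 thus exceeded Ccl2 in all 9 treated tumours and lay below it in all 3 Control tumours. Ccl9 over Ccr1 was 5.40, 17.8 and 6.60 in Combination, 6.45, 5.89 and 6.92 in GC, 4.27, 7.34 and 6.60 in ICB, and 2.15, 2.98 and 4.10 in Control.

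**Figure D3:**
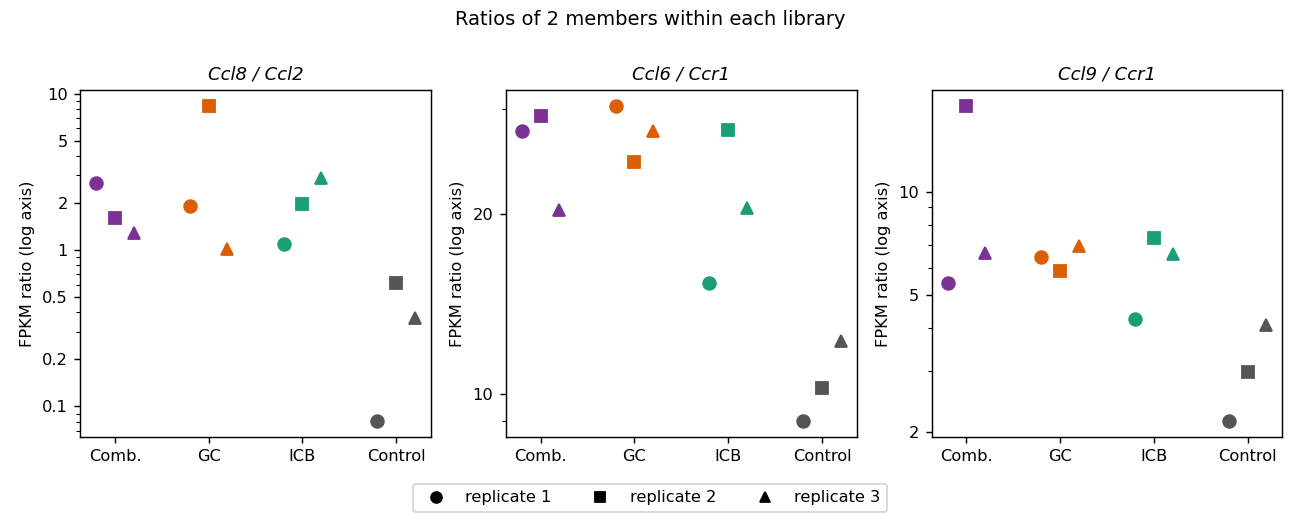
Ratios of FPKM of 2 genes within each library (log axis), by group from Combination to Control, with symbols for replicates 1 to 3. All 9 treated libraries lie above all 3 Control libraries in each panel.

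The members fell into sets that moved together over the 12 libraries. Within the MCP genes the 6 pairs had Pearson r of 0.83 to 0.97 on the log2(FPKM + 1) scale. Ccl2 and Ccl7 had r = 0.97 (permutation test with 100000 resamples, p = 1e-05, the smallest it can give, adjusted over 45 pairs p = 0.000112; Spearman rho = 0.94), and r = 0.94 without the libraries farthest from the median of Ccl2. Ccl2 and Ccl12 had r = 0.96 (same permutation p, rho = 0.93, and r = 0.90 without the farthest libraries). Ccl6 and Ccl9 had r = 0.95 (permutation p = 1e-05, rho = 0.99, and 0.97 without the farthest libraries).

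Across the MIP genes the pairs spread from -0.04 to 0.95, since Ccl3 and Ccl4 went with each other (r = 0.74, two-sided permutation p = 0.00575, adjusted p = 0.0129, rho = 0.60 with adjusted p = 0.122, and r = 0.82 without the farthest libraries) more than with Ccl6 and Ccl9. Ccl3 had r between -0.21 and 0.27 with every member other than Ccl4. Between the MCP and MIP genes the median r was 0.62. Ccr1 had r = 0.88 with Ccl6 (permutation p = 0.00021, adjusted p = 0.00189, rho = 0.83, and 0.76 without the farthest libraries). Ccr1 and Ccr2 had r = 0.76 (permutation p = 0.00565, adjusted p = 0.0129) and rho = 0.70 (adjusted permutation p = 0.0506). Without Combination replicates 2 and 3, the libraries farthest from the median of Ccr1, r was 0.86. Control replicate 1, the lowest for Ccr2, stayed in that value.

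The receptor and its ligand were less firmly tied. Ccr2 and Ccl2 had r = 0.78 (permutation p = 0.00314, adjusted p = 0.0118) but rho = 0.52 (adjusted p = 0.163), and r = 0.39 without Control replicate 1 and Combination replicate 2, so that relation rests on those libraries. The same holds for Ccl2 and Ccl6, with r = 0.72, and 0.21 without them. It also holds for other pairs, such as Ccl2 and Ccl9 (0.71, and 0.19 without them) and Ccl12 and Ccl9 (0.78 and 0.24). Ccl12 and Ccr2 (0.81 and 0.36) and Ccl9 and Ccr2 (0.82 and 0.45) fell as well. Of the 45 pairs 26 had an adjusted Pearson p under 0.05, fewer had an adjusted Spearman p under 0.05, and the median Pearson r was 0.71. The share among pairs of all genes was not computed, so neither count can be called particular to these genes. As deviations from the group means, which leave out differences between treatments, r was 0.96 for Ccl2 and Ccl7, 0.92 for Ccl6 and Ccl9, 0.97 for Ccl6 and Ccr1 and 0.67 for Ccl3 and Ccl4.

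**Figure D4:**
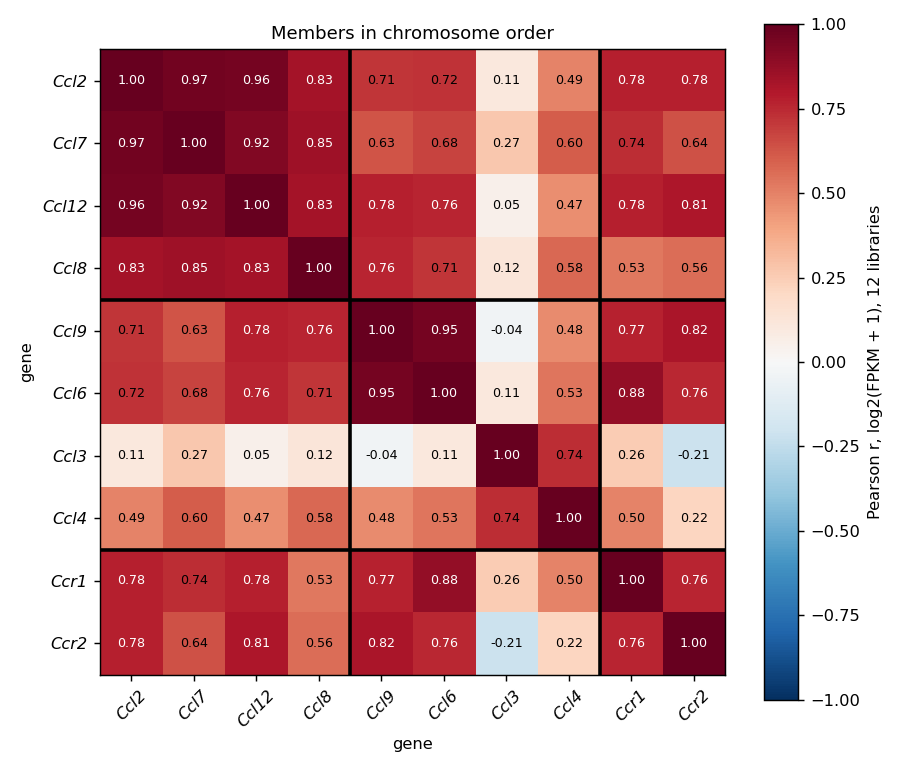
Pearson r between members over the 12 libraries on the log2(FPKM + 1) scale, in chromosome order, with lines between the MCP genes, the MIP genes and the receptors. The MCP block holds values of 0.83 to 0.97, and the Ccl3 row is near 0 except with Ccl4 (0.74).

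The non-member genes with the most similar pattern over the 12 libraries, 3 for each member by Pearson r and given as a description, differed between these sets. For Ccl2 they were Ms4a7 (0.99), a membrane gene of macrophages, Tspan6 (0.96) and Fcrls (0.95), and Ccl12 shared Ms4a7 (0.98) and Fcrls (0.96) with it, followed by Tgfbi (0.96). For Ccl7 they were Rian, Atp1b2 and Tspan6 (0.94 each), and for Ccl8 Cxcl16 (0.91), Penk (0.90) and Slc38a6 (0.90). For Ccl3 they were Cxcl3 (0.93), Hmox1 (0.93) and Cxcl2 (0.92), of which Cxcl2 and Cxcl3 encode neutrophil attractants and Hmox1 heme oxygenase. For Ccl4 they were Mmp12 (0.88), a macrophage elastase, Serpinb2 (0.88) and Mmp9 (0.87). Ccl6 had Tfec, Batf and Bcl2a1b (0.96 each), and Ccl9 had Bcl2a1b (0.97), Tbxas1 (0.96) and Bcl2a1d (0.95). Bcl2a1b and Bcl2a1d are near-identical copies whose reads may be split between them. Ccr1 had Trem2, a lipid receptor of tumour-associated macrophages, Lsm7 and Sirpb1b (0.99 each), and Ccr2 had Plcb2 (0.94), Cmklr1 (0.93) and Traf3ip3 (0.93).

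Several marker lists varied with these genes. The macrophage list (13 genes, all detected in every group) averaged 6.49, 4.47 and 5.19 in Combination, 6.43, 7.30 and 6.45 in GC, 6.29, 5.55 and 6.17 in ICB, and 4.11, 6.30 and 6.37 in Control on the log2(FPKM + 1) scale. Its 3 lowest libraries were Control replicate 1 and Combination replicates 2 and 3, which are also low for most members. Its summed level lay between 796 and 7199 FPKM in Combination, 7503 and 8370 in GC, 2176 and 3770 in ICB, and 481 and 7447 in Control. Over the 12 libraries, Pearson r with this list was 0.94 for Ccl2 (permutation p = 1e-05, adjusted over 10 genes p = 0.0001, rho = 0.76), 0.93 for Ccl12, 0.81 to 0.88 for Ccl6, Ccl7, Ccl8, Ccl9, Ccr1 and Ccr2, 0.45 for Ccl4 (permutation p = 0.144) and 0.05 for Ccl3 (permutation p = 0.869). Without Control replicate 1 and Combination replicate 2, r was 0.62 to 0.85 for the 8 genes other than Ccl3 and Ccl4, and -0.04 for each of these. The Kupffer cell list (6 genes, resident liver macrophages) was highest in Combination replicates 2 and 3, unlike the macrophage list. It averaged 2.16, 4.50 and 3.73 in Combination, 1.78 to 2.70 in GC, 1.49 to 2.84 in ICB and 0.87 to 1.87 in Control. Its r with the members lay between -0.57 (Ccr1) and 0.06 (Ccl8), as a description. The part of macrophage or Kupffer cell content in the differences between groups was not tested.

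The monocyte list (8 genes, all detected) averaged 4.27, 1.96 and 3.07 in Combination, 3.82 to 4.68 in GC, 3.74 to 4.23 in ICB and 3.29 to 3.89 in Control. Combination replicate 2 was the lowest of all 12, as it was for Ccl3, Ccl4, Ccl6, Ccl7 and Ccr1. As a description, r of the monocyte list with the members lay between 0.52 (Ccr2) and 0.90 (Ccr1), with 0.54 for Ccl3 and 0.66 for Ccl4. The neutrophil list (9 genes found) averaged 1.80 to 2.36 in Combination, 1.93 to 2.73 in GC, 2.20 to 4.77 in ICB and 1.32 to 2.77 in Control, with ICB replicate 3 at the top, the library in which Ccl4 was highest. The type I interferon response list (10 genes) averaged 2.20 to 3.30 in Combination, 2.74 to 4.42 in GC, 1.30 to 1.64 in ICB and 0.91 to 1.48 in Control, and GC replicate 2 was highest for it and for Ccl2, Ccl7, Ccl8 and Ccl12. GC replicate 2 and Control replicate 2, the libraries rich in skeletal muscle transcripts, were the highest for Ccl2, Ccl7 and Ccl12. As a description, r with the muscle list was 0.69, 0.75, 0.56 and 0.55 for Ccl2, Ccl7, Ccl12 and Ccl8. With the interferon list it was 0.42, 0.44, 0.35 and 0.70. With a list of endothelial genes it was 0.78, 0.75, 0.67 and 0.77. The fibroblast list (9 genes, all detected) averaged 5.56, 4.05 and 5.79 in Combination, 6.37, 7.14 and 6.41 in GC, 5.91, 5.57 and 6.56 in ICB, and 5.59, 6.04 and 4.68 in Control. Its GC libraries all lay above its Control libraries and above its Combination libraries. Over the 12 libraries its r with the members, as a description, lay between 0.37 (Ccr2) and 0.74 (Ccl4), with 0.56 for Ccl3. The part of these cell types, of muscle tissue and of interferon in the levels of the members was not tested.

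**Figure D5:**
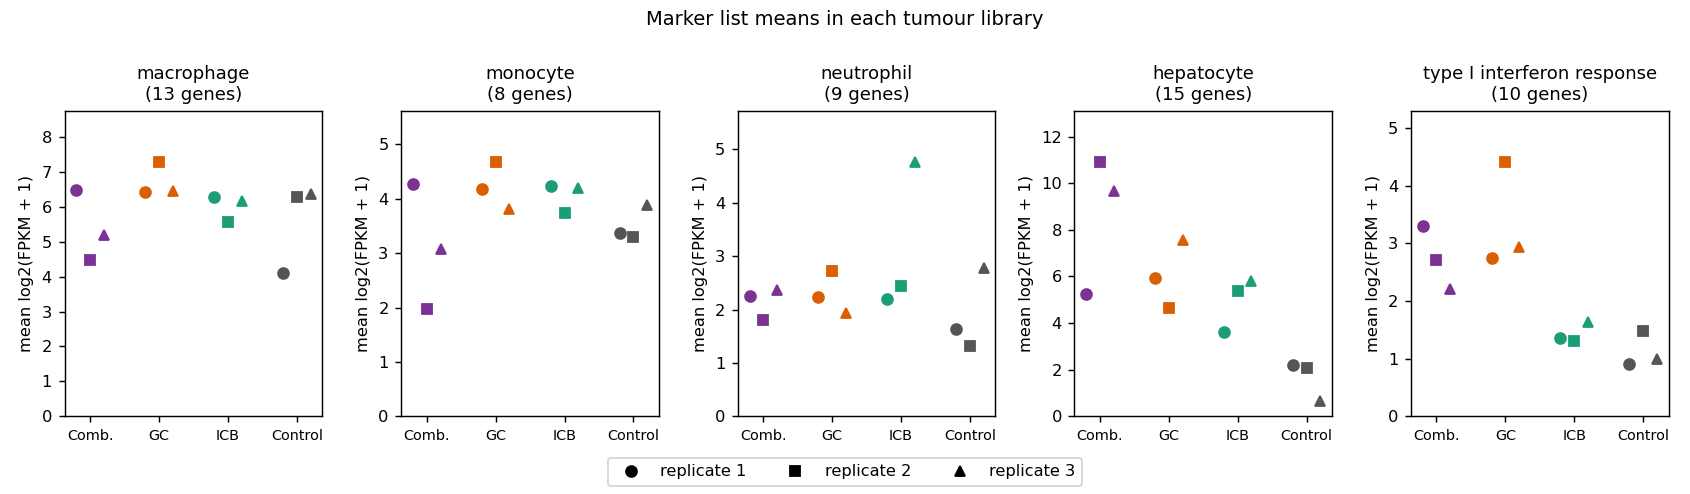
Mean log2(FPKM + 1) of 5 marker lists in each library, by group from Combination to Control, with symbols for replicates 1 to 3. Control replicate 1 and Combination replicates 2 and 3 are lowest for the macrophage list, and Combination replicates 2 and 3 are highest for the hepatocyte list.

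Other genes of the same system were read from lists of 13 further CC ligands (7 with a mean of at least 1 FPKM), 12 further CC receptors (3 tested) and 15 other genes that recruit or sustain monocytes (14 tested). Of these 24 tested genes, only Ccrl2 was called in Combination against Control (3.95% of all genes) and in Combination against ICB (2.24%). In the chemotherapy term 3 of the 24 were called (Ccrl2, Ccl22 and Ccl5), where 3.36% of all genes were. No other comparison called any of them. Ccrl2, which encodes a non-signalling receptor that presents chemerin, stood at 0.949 ± 0.227 FPKM in Combination, 2.13 ± 0.182 in GC, 3.54 ± 0.617 in ICB and 3.01 ± 0.659 in Control (SD, n = 3 each). It fell in Combination against Control (log2 difference -1.04 ± 0.24, limma adjusted p = 0.0347), in Combination against ICB (-1.22 ± 0.24, adjusted p = 0.0241) and in the chemotherapy term (-0.78 ± 0.17, adjusted p = 0.0318). The first call was lost without any single Control or GC library, ICB replicate 2 or 3, or Combination replicate 2 or 3 (adjusted p up to 0.112). The second was lost without any ICB library or Combination replicate 2 or 3 (up to 0.125), and the third without any Control, GC or ICB library or Combination replicate 3 (up to 0.0912). With TMM scaling the first and second were lost as well (adjusted p = 0.0805 and 0.0571), as they were with only the compared groups in the fit (0.322 and 0.241). With the replicate numbers as a block, the second had an adjusted p of 0.0574 in limma.

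Both ligands that rose in the chemotherapy term attract T cells. Ccl22, which binds CCR4, stood at 2.81 ± 0.640 FPKM in Combination, 4.62 ± 2.04 in GC, 1.43 ± 0.661 in ICB and 0.493 ± 0.228 in Control (SD, n = 3 each), with a term of 1.26 ± 0.25 (limma adjusted p = 0.0214, up to 0.0782 without Control replicate 3, GC replicate 2 or 3, or ICB replicate 2). Ccl5, whose product binds CCR1, stood at 11.4 ± 5.91 FPKM in Combination, 16.6 ± 10.9 in GC, 6.55 ± 4.73 in ICB and 1.74 ± 1.00 in Control (SD, n = 3 each), with a term of 1.65 ± 0.40 (adjusted p = 0.0476, up to 0.126 without any Control library, GC replicate 2 or 3, ICB replicate 1 or 2, or Combination replicate 3). With the hepatocyte covariate none of these calls held (adjusted p = 0.413, 0.105 and 0.175 for the calls of Ccrl2, 0.195 for Ccl22 and 0.0956 for Ccl5).

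The other tested ligands and receptors did not pass. In GC against Control the differences of smallest p were 1.85 ± 0.35 for Ccl22 (limma adjusted p = 0.122) and 2.54 ± 0.57 for Ccl5 (adjusted p = 0.157) among ligands, and 1.26 ± 0.38 for Ccr7 (adjusted p = 0.273) among receptors. Among the other genes they were 1.78 ± 0.81 for Cxcl12 (limma adjusted p = 0.499) and 1.23 ± 0.60 for Csf2 (adjusted p = 0.536). All 7 further ligands had a positive difference in GC against Control (median 1.08, against 0.09 over all genes). The same was true in Combination against Control (median 1.35, against -0.29), and for 6 of 7 in ICB against Control (median 0.67, against -0.06). Among them, Ccl25 ranged from 3.27 to 89.3 FPKM in Combination and from 2.52 to 5.77 FPKM in Control. For the 8 chemokine genes of the monocyte set, the Combination difference from Control was positive for 3. Il34, a macrophage survival factor, stood at 12.2 ± 10.2 FPKM in Combination, 25.1 ± 9.84 in GC, 33.9 ± 7.47 in ICB and 33.5 ± 5.77 in Control (SD, n = 3 each). Its difference was -1.70 ± 0.51 both in Combination against Control (limma adjusted p = 0.0856) and in Combination against ICB (adjusted p = 0.107).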

How the data were processed

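The 12 samples are bulk RNA libraries of tumours. Qiagen kits were used for total RNA and for stranded library preparation, per the labels' protocols. The groups were read from the titles, whose replicate numbers differ from those of the description field. The values are FPKM as deposited by the authors, 1 per symbol and sample. The tools named in the submitters' processing notes are HISAT2, HTSeq, SAMtools, cutadapt and FastQC, with the mm10 build. Versions, the step that made FPKM and the use of strand in counting are not given in the sources used here. Low values (up to 0.1 FPKM) showed no whole-read steps in 66 pairs of samples, so count models were not used and depth is unknown.

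The test was limma 3.58.1 (R 4.3.3) on log2(FPKM + 1), in 1 fit of the 4 group means (8 residual degrees of freedom) with an intensity trend, over the 12765 genes whose mean reached 1 FPKM. That minimum, like the design, was written for an unstated unit. Benjamini-Hochberg adjustment ran over all genes tested, with a threshold of 0.05. Differences are on the log2(FPKM + 1) scale, which understates changes of low genes. The 10 genes, 16 gene lists (158 of 160 genes found), tests and alternatives were chosen with earlier results of these data known. All 10 members were named. So were, for each of them, the 3 non-member genes of highest r, and the called genes of the further lists, else 2 of smallest p. Of the latter the text gives those of GC against Control and Il34, and 1 gene that the rule took is not reported here. Alternatives covered pseudocounts (0.1, 0.5), filters, TMM and quantile scaling, the trend, the samples in the fit, a replicate block, a hepatocyte covariate and sample weights. The limma step was tested on simulated data.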

Additional observations from a re-analysis of the deposited data

How the results depend on the processing

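No member passed in the main results, and the count was also 0 with other pseudocounts, filters, scaling, without the trend, with only the compared groups and with the replicate block. With a hepatocyte covariate (the list mean of each library), 3 members passed for GC against Control (Ccl6, Ccl9 and Ccr1), 1 for the interaction and 1 for the F (Ccl6 in both), where 3.502%, 3.00% and 1.83% of all genes passed. Without Combination replicate 1, GC replicate 2 and Control replicate 2 together, 2 passed for Combination against GC (Ccl6 and Ccr1), 1 for Combination against ICB (Ccr1), 1 for the interaction and 1 for the F (Ccl6 in both), where 9.28%, 12.9%, 2.94% and 9.65% of all genes passed. With sample weights, whose estimation stopped before converging and gave Combination replicate 3 a weight of 161.8 and Combination replicate 2 one of 0.05519, the counts were 2 for GC, 2 for ICB and 5 for Combination against Control, 4 for Combination against GC, 9 for Combination against ICB, 1 for the chemotherapy term, 6 for the blockade term, 5 for the interaction and 9 for the F, where 11.4%, 19.2%, 52.5%, 54.7%, 59.1%, 35.1%, 47.5%, 31.6% and 78.7% of all genes passed, in that order. Without the Combination libraries, an alternative chosen after seeing the data, 1 passed for GC against Control (Ccl6, adjusted p = 0.0356). Leaving out each library in turn gave 0 to 0 members called for GC and for ICB against Control and for the chemotherapy term, 0 to 1 for Combination against Control, 0 to 3 against GC, 0 to 2 against ICB, 0 to 1 for the blockade term, 0 to 3 for the interaction and 0 to 2 for the F.

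Directions turned in these cases, and the cause was not tested. In Combination against Control, Ccl12 was 0.16 with a pseudocount of 0.1, 0.11 with TMM and 4.43 with the hepatocyte covariate, under which Ccl2 was 2.26, Ccl4 0.36, Ccl7 2.87, Ccr1 1.86 and Ccr2 0.99. Every Combination library exceeded every Control library in the hepatocyte list, so its part and that of the treatment cannot be told apart. Without the 3 libraries named above, Ccl6 was -0.69 and Ccl9 -0.056. With sample weights, Ccl3 was 0.90, Ccl4 0.77, Ccl6 -0.67 and Ccl9 -0.56. In Combination against GC, Ccl12 was 0.25 with the covariate, and Ccl3 0.53 and Ccl4 0.14 with weights. In Combination against ICB with the covariate, Ccl12 was 1.40, Ccl2 0.82, Ccl6 0.63, Ccl7 1.06, Ccl8 1.57, Ccl9 0.24 and Ccr1 0.37. In GC against Control, Ccl3 was -0.083 with TMM, -0.15 with quantile normalization and -1.08 without the 3 libraries, and with weights Ccl12 was -0.40, Ccl2 -0.21 and Ccl7 -0.19. In ICB against Control with weights, Ccl12 was -0.58, Ccl2 -0.38, Ccl7 -0.35, Ccr1 -0.25 and Ccr2 -1.20. Leaving out single libraries gave, in GC against Control, -0.38 to 2.32 for Ccl12, -0.086 to 1.502 for Ccl2, -0.62 to 0.75 for Ccl3 and -0.11 to 1.93 for Ccr2. In ICB against Control it gave -0.79 to 1.91 for Ccl12, -0.70 to 0.88 for Ccl2, -0.57 to 1.01 for Ccl7, -0.37 to 0.45 for Ccr1 and -1.08 to 0.95 for Ccr2. In Combination against Control it gave -1.82 to 0.88 for Ccl12, -1.25 to 0.34 for Ccl2, -0.73 to 0.31 for Ccl4, -0.84 to 0.86 for Ccl6, -1.22 to 0.40 for Ccl7 and -0.39 to 0.92 for Ccl9. In Combination against ICB it gave -1.08 to 0.066 for Ccl2, -1.26 to 0.14 for Ccl7 and -1.45 to 0.079 for Ccl8. Over 65 gene results and all alternatives, 1391 of 1550 values kept their direction and their side of the threshold. Most of these results were uncalled in the main fit, so keeping their side mostly meant staying uncalled. Only the calls of Ccrl2, Ccl22 and Ccl5 could be lost. They were lost in 53 values, 37 of these with a single library left out. In 45 values an uncalled result passed with its direction kept, and 61 values changed direction.

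The title replicate numbers were fitted as a block, which left 0 members called in each comparison. The deviations of same-numbered samples from their group means had correlations of -0.24 to 0.42, and 8 of 18 pairs were over 0.1. For Combination and ICB all 3 pairs were (0.29, 0.14 and 0.20), which was the bar set for a pairing, and in no other pair of groups were all 3. Combination replicate 2 nevertheless had a higher r with ICB replicate 3 (0.17). Counting each sample once per other group, 12 of 36 had their highest r with the same number, out of 3 candidates each. The block changed no call of a member in Combination against ICB and took Ccrl2 to a limma adjusted p of 0.0574. Numbers of the description field were not fitted as a block. With 3 libraries in a group and unknown depth, differences near 1 on the log2 scale were within 2 standard errors for every member in the comparisons of groups.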
